A study of Mus musculus with 4 samples.

Results

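Complement components made by fibroblasts were examined as 8 genes, *C1ra*, *C1s1* (the table's symbol for C1s), *Masp1*, *C4b*, *C3*, *Cfb*, *Serping1* and *Cd55*, taken by symbol from a count table of 24391 genes. All 8 passed the filter on low counts, which left 13668 genes for testing. The counts came from RNA-seq of primary mouse embryonic fibroblasts (MEFs), cells grown out of E13.5 embryos and held in quiescence, with 2 WT and 2 *Phf2* KO libraries. The series asks which genes depend on Phf2, a chromatin protein that reads histone methylation at active promoters. By the labels all 4 libraries carried the genotype *Phf2* flox/flox, ERCre/+, in which the Rosa26 locus drives a Cre recombinase fused to a tamoxifen-responsive receptor. Tamoxifen was labelled for the *Phf2* KO libraries only, and the protocol gives 0.5 µM 4-hydroxytamoxifen (4-OHT) for 7 days in text worded alike for all 4. WT was therefore the undeleted floxed genotype, and loss of Phf2, Cre activity and exposure to 4-OHT cannot be told apart here.

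Complement is a cascade of serum proteins that tags microbes and damaged cells for uptake or lysis. In its classical branch the recognition protein C1q carries the proteases C1r and C1s, which cleave C4 and C2. In the lectin branch mannose-binding lectins, other collectins or ficolins carry Masp proteases. Both branches meet the alternative branch, which uses factor B, at the cleavage of C3. Liver is the main source of most of these proteins in plasma, and fibroblasts and macrophages make many of them locally, with C1q coming largely from macrophages. C1 inhibitor and decay-accelerating factor restrain the cascade.

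The libraries held between 21094743 and 26094268 counts, and 3 counts, used as the floor of detection, equal 0.116 to 0.145 CPM (counts after each library is brought to the same effective size), a floor for counting error only. *Phf2* had 3244 and 3680 counts in WT (replicates 1 and 2, the order used throughout) against 1454 and 2158 in *Phf2* KO. Its log2 fold change was -0.79 ± 0.14 (SE, n = 2 per group), and counts summed over the gene do not separate the floxed exons from those outside them. All 15 fibroblast markers examined were measured. Their summed level was 92326 and 95255 normalized CPM in WT against 81998 and 79060 in *Phf2* KO. Both *Phf2* KO libraries lay below both WT libraries for 9 of the 15, against 18.0% of all genes tested. In edgeR 4 had an unadjusted p under 0.05, against 4.21% of all genes, and 0 an adjusted p under 0.1. The median log2 fold change of the 15 was -0.20, against 0.01 over all genes tested. The bearing of this on the 8 genes was not tested. Hepatocyte markers reached at most 0.424 normalized CPM in sum, with *Ahsg*, *Fgb*, *Serpina1a* and *Serpina1b* at 0 in all 4 libraries, and epithelial markers reached at most 1.08. The replicate number separated the libraries in both groups. *Xist*, the RNA that coats the silent X chromosome of female cells, had 10042 and 8336 counts in the replicates 1 of WT and *Phf2* KO, and 3 and 12 in the replicates 2. *Ddx3y*, on the Y chromosome, had 6 and 10 counts in replicates 1 but 1271 and 1295 in replicates 2. Replicates 1 were thus female and replicates 2 male. All 28 macrophage markers tested, of 29 in the table, had their higher level in replicate 1, whichever the genotype. Their summed level was 4535 and 971 normalized CPM in WT against 4905 and 1498 in *Phf2* KO. Endothelial markers summed to 24.1 and 13.7 in WT and to 17.4 and 10.9 in *Phf2* KO, with *Tie1*, *Cldn5* and *Robo4* at 0 throughout. Most of each sum was *Kdr*, at 18.3 and 8.94 in WT and at 12.5 and 5.62 in *Phf2* KO. *Pecam1* had 2 to 5 counts per library and *Cdh5* 0 to 6. The levels of the 8 genes are therefore given for each library by its number.

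*C1ra* (chr6:124462423-124473458, plus strand, NCBIM37, the build called mm9) and *C1s1* (chr6:124480363-124586998, minus strand) are neighbours that encode partner proteases, and the annotated span of *C1s1* also overlaps *C1rb* and *C1s2*, which the annotation calls Gm5077. *C3* (chr17:57343397-57367559), *C4b* (chr17:34865325-34880827) and *Cfb* (chr17:34993319-34999463) lie on the minus strand of chromosome 17. *Serping1* (chr2:84605544-84615601), *Cd55* (chr1:132335604-132359321) and *Masp1* (chr16:23449490-23520676) are on the minus strand too. All 8 are protein coding. The annotated span of *Cfb* overlaps that of Gm20547, that of *Cd55* overlaps Gm16083, and that of *C1ra* overlaps *C1rb*. That of *C1s1* overlaps Gm16567 as well.

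Several of these genes have close copies, and reads of 50 bases cannot always tell them apart. Windows of 50 bases were taken from the longest protein-coding transcript of each gene. Of those of *C1ra*, 28.8% occurred unchanged elsewhere in the genome, mainly in *C1rb*. The share was 14.6% for *C4b*, all in *C4a*, 9.90% for *Cd55*, in *Daf2* (the table's *Cd55b*), and 6.35% for *C1s1*, in *C1s2*. It was 0.590% for *Masp1*, and 0% for *C3*, *Cfb* and *Serping1*. How reads that match more than 1 place were treated is not given in the sources used here. In the table *C1rb* had 2 to 4 counts per library, *C1s2* 8 to 12, *C4a* 27 to 51 and *Cd55b* 0, which leaves the levels of *C1ra*, *C4b*, *Cd55* and *C1s1* uncertain by whatever part of the shared windows was lost or misassigned. *C4b* and *C4a* were 96.5% identical over 4988 aligned coding bases, with 174 differing. Where they differ most, 11 of 50 bases are unlike. Both stretches are shown to make plain how a read can be told from its copy, as NCBIM37 sequence of the minus strand with the differing bases in capitals, from chr17:34872381-34872430 for *C4b* and chr17:34953037-34953086 for *C4a*.
C4b: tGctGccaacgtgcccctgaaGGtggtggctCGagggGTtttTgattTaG
C4a: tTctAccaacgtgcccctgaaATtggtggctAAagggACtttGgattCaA

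Promoters, from 250 bases before to 50 after the annotated start, were at hand for 4 of the 8 genes (*C1ra*, *C1s1*, *C3* and *Cd55*) from RefSeq on GRCm38.p6. *C1ra* and *C1s1* are shown as a neighbouring pair whose products act together. *C3* is shown as the component that all branches share and as a gene called between replicate numbers below. Capitals mark matches on either strand to the C/EBP motif TTGCNNAA or the STAT motif TTCNNNGAA, which belong to factors through which inflammatory cytokines are known to induce complement genes. The first of the 2 annotated starts of *C1s1* is shown, and the window of the second held neither motif. The regions are chr6:124512371-124512670 on the plus strand for *C1ra*, and chr6:124542310-124542609 and chr17:57228087-57228386 on the minus strand for *C1s1* and *C3*.
C1ra: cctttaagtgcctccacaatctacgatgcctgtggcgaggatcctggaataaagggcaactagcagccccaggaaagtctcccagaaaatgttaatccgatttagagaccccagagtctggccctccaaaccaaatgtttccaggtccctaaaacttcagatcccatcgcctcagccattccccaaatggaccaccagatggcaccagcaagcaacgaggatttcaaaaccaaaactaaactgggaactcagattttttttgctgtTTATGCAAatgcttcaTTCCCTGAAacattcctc
C1s1: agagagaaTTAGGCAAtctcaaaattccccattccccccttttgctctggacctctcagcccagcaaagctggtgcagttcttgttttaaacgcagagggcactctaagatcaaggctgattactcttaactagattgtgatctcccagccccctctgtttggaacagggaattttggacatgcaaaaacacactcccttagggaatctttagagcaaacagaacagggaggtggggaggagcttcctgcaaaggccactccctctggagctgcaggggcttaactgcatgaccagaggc
C3: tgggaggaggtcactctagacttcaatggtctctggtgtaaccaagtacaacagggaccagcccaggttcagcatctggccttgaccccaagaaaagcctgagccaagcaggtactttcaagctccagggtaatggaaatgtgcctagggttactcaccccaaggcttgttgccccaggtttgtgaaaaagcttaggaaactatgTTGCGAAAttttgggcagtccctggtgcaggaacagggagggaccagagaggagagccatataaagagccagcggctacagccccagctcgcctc

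The C/EBP letters stood at -45 from the start in *C3* and at -242 from the first start in *C1s1*. In *C1ra* they stood 16 bases past the start, and that promoter also held a STAT match at 32. Among 32851 mouse promoters of this length, 10.8% held the C/EBP letters and 8.30% the STAT letters. Matches to the interferon response element (3.44% of all promoters) and to the NF-kB motif (8.46%) were also searched for and were found in none of the 4 genes, and the *Cd55* promoter held none of the motifs. The matches are letters in a window and say nothing of binding.

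To order the genes by level, normalized CPM were divided by the length of each gene's exons. *Serping1*, the C1 inhibitor, was highest at 69.5 ± 4.51 normalized CPM per kb (mean ± SD, n = 4 libraries). *C1ra* followed at 22.1 ± 1.45 and *C1s1* at 21.9 ± 2.89, and these 2 proteases overlapped between libraries. *C4b* was at 12.0 ± 0.9497 and *C3* at 2.95 ± 0.778, each separate from its neighbours in the order. At the low end *Cfb* (1.19 ± 0.263), *Masp1* (0.723 ± 0.231) and *Cd55* (0.553 ± 0.106) overlapped, each with the next. The steps between the others were 3.15-fold from *Serping1* to *C1ra*, 1.82-fold from *C1s1* to *C4b*, 4.06-fold from *C4b* to *C3* and 2.48-fold from *C3* to *Cfb*. The RNAs of the classical branch's proteases, their substrate C4 and their inhibitor were thus measured well above those of *C3*, *Cfb* and *Masp1*. When the longest transcript was used as the length instead, *C1s1* (25.96) stood above *C1ra* (24.1) and *Cd55* (0.856) level with *Masp1* (0.848).

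**Figure D1:**
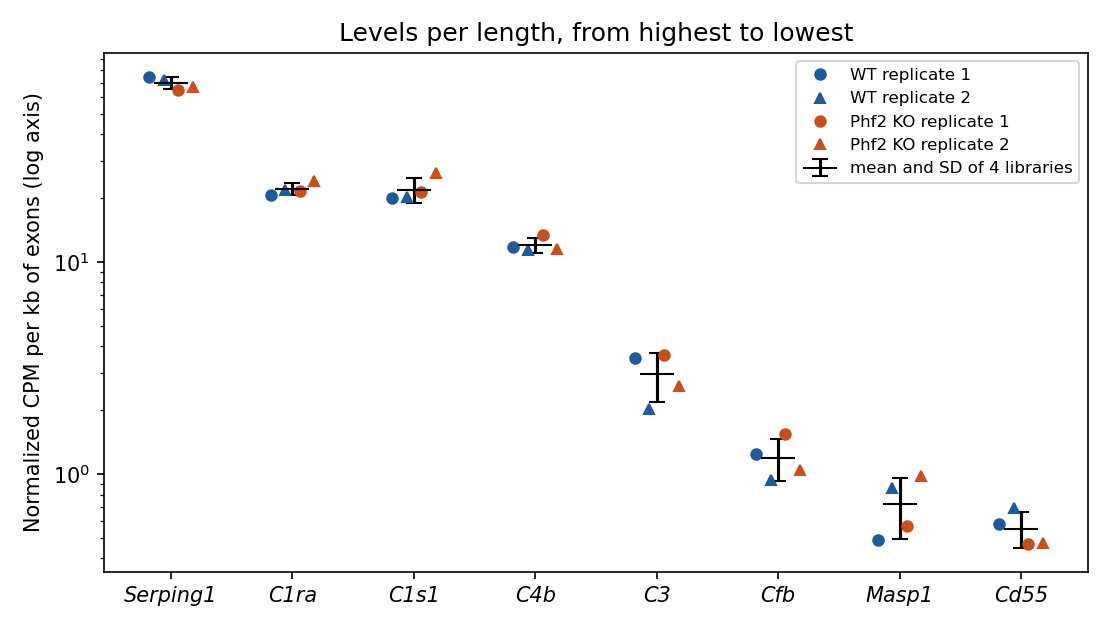
The y axis gives normalized CPM per kb of exons on a log axis for the 8 genes, ordered from highest to lowest. Blue points are WT and orange points *Phf2* KO libraries, circles replicates 1 and triangles replicates 2, and the black bars the mean and SD of the 4 libraries. *Serping1* stands at 69.5 on average and *Cd55* at 0.553.

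None of the 8 genes passed an adjusted p of 0.1 between *Phf2* KO and WT in edgeR's quasi-likelihood test, where the adjusted p was 0.999 for each. Of all genes tested 0.00732% (1 of 13668) were called, so this comparison as fitted calls almost nothing anywhere. *Phf2* itself was not called in it (adjusted p = 0.999, edgeR). With the replicate number as a further term *Phf2* was called (adjusted p = 7.7e-19, edgeR). At an unadjusted p under 0.05 there were 0 of the 8 genes in edgeR, against 4.21% of all genes, and 0 in DESeq2, against 2.98% of all genes there. At the adjusted threshold limma-voom called 0 of the 8 genes and 0 of all 13668. Both *Phf2* KO libraries lay above both WT libraries for 1 gene, *C1s1*, where 15.5% of all genes did so, and both lay below for 2, *Serping1* and *Cd55*, against 18.0%. The sign of the *Phf2* KO to WT ratio was the same in replicates 1 and in replicates 2 for all 8 genes, and for 62.7% of all genes. Some of these log2 ratios were near 0. That of *C4b* was 0.19 in replicates 1 and 0.011 in replicates 2, that of *C1ra* 0.058 and 0.14, and that of *C3* 0.043 in replicates 1. The median log2 fold change was 0.14 over the 8 genes and 0.01 over all genes tested. The summed normalized CPM of the 8 genes was 399.8 and 389.3 in WT against 395.2 and 408.6 in *Phf2* KO.

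**Figure D2:**
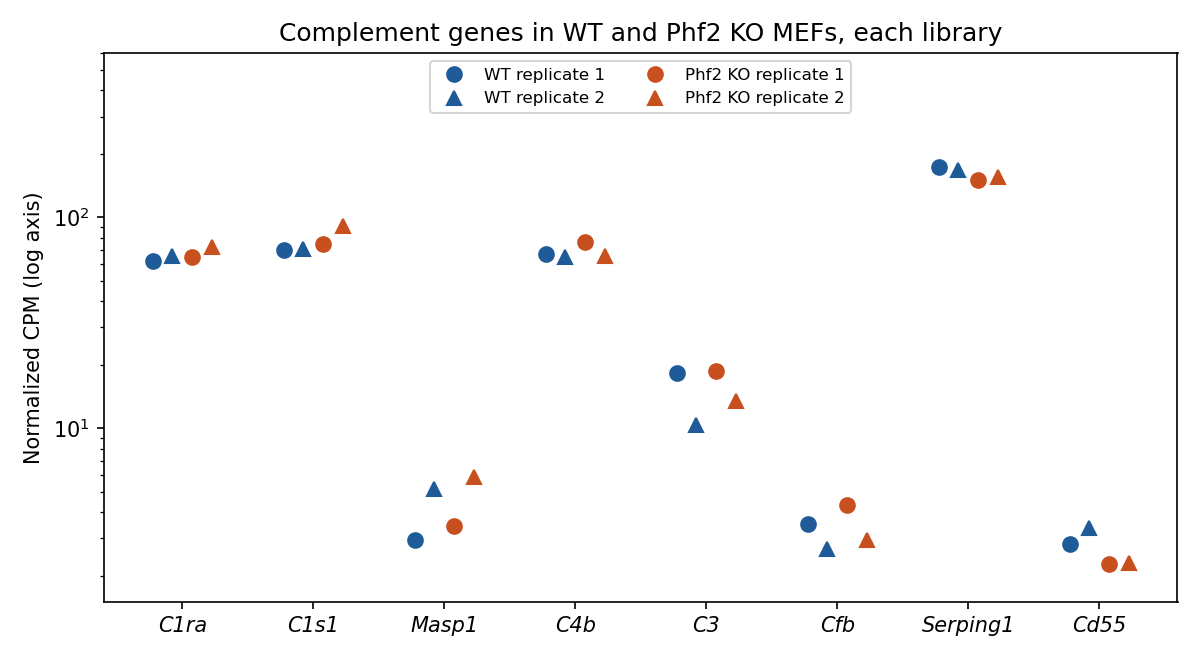
The y axis gives the normalized CPM of each of the 8 genes on a log axis, 1 point per library, with WT in blue, *Phf2* KO in orange, circles for replicates 1 and triangles for replicates 2. *Serping1* and *Cd55* have both orange points below both blue points, *C1s1* has them above, and *C3*, *Cfb* and *Masp1* split by replicate number.

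Among the proteases, *C1ra*, which is cleaved first when C1q binds and then activates C1s, was at 62.1 and 65.7 normalized CPM in WT and at 64.7 and 72.4 in *Phf2* KO. The groups overlapped, and the log2 fold change was 0.10 (95% interval -0.15 to 0.35). *C1s1*, the protease that cleaves C4 and C2, was at 69.8 and 70.3 in WT and at 74.5 and 91.3 in *Phf2* KO. Its WT libraries were close together, and *Phf2* KO replicate 2 stood highest. The log2 fold change was 0.24 ± 0.12 (SE, n = 2 per group), with an interval from -0.08 to 0.56. Within replicates 1 alone the log2 ratio was 0.09, and within replicates 2 it was 0.38. The fitted value was 0.088 without *Phf2* KO replicate 2 and 0.38 when replicate 1 of that group was left out. Leaving out 1 library sets 1 replicate number against both, so such values mix genotype with replicate number, here and below. *Masp1*, a protease of the lectin branch, was at 2.95 and 5.16 in WT and at 3.43 and 5.87 in *Phf2* KO. Counts per gene do not separate the 2 annotated transcripts of *Masp1*. The libraries were grouped by replicate number and not by genotype for *Masp1*, with a log2 fold change of 0.20 (interval -0.88 to 1.27). Within replicates 1 its log2 ratio was 0.22 and within replicates 2 it was 0.18, and the fitted sign turned without WT replicate 1 (-0.14) or *Phf2* KO replicate 2 (-0.24).

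*C4b*, the substrate of C1s whose larger fragment binds to surfaces, was at 66.8 and 64.9 normalized CPM in WT and at 76.4 and 65.4 in *Phf2* KO, so that 3 of the 4 libraries lay close together and *Phf2* KO replicate 1 above them. The log2 fold change was 0.11 (interval -0.18 to 0.39) and fell to -0.01 without that library. *C3*, the central component, was at 18.2 and 10.4 in WT and at 18.7 and 13.4 in *Phf2* KO. Replicates 1 of both groups were nearly equal and both replicates 2 were lower, and the log2 fold change was 0.17 (interval -0.70 to 1.05). Its sign turned when WT replicate 2 (-0.20) or *Phf2* KO replicate 1 (-0.092) was left out, and its log2 ratio was 0.043 within replicates 1 and 0.37 within replicates 2. *Cfb*, factor B, which joins cleaved C3 in the convertase of the alternative branch, was at 3.53 and 2.66 in WT and at 4.34 and 2.95 in *Phf2* KO. The log2 fold change of *Cfb* was 0.24 (interval -0.56 to 1.03), from 69 to 90 counts per library. It was 0.30 within replicates 1 and 0.15 within replicates 2, and -0.067 in the fit without *Phf2* KO replicate 1.

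Of the inhibitors, *Serping1*, whose product inactivates C1r, C1s and Masp proteases, was at 173.6 and 166.8 normalized CPM in WT and at 150.8 and 155.0 in *Phf2* KO. Both *Phf2* KO libraries were lower. Its log2 fold change was -0.15 ± 0.08 (SE, n = 2 per group, interval -0.37 to 0.06), which was -0.20 within replicates 1 and -0.11 within replicates 2. *Cd55*, decay-accelerating factor, a membrane protein that takes convertases apart, was at 2.82 and 3.35 in WT and at 2.27 and 2.29 in *Phf2* KO. These levels rested on 68 and 87 counts in WT against 47 and 55 in *Phf2* KO. The log2 fold change of *Cd55* was -0.44 ± 0.23 (SE, n = 2 per group, interval -1.04 to 0.17), with -0.31 within replicates 1 and -0.55 within replicates 2. This was the largest difference of the 8 in size, and its interval includes 0. Doubling or halving between the groups lies outside the intervals of *C1ra*, *C1s1*, *C4b* and *Serping1*, and inside that of at least 1 direction for *C3*, *Cfb*, *Cd55* and *Masp1*.

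**Figure D3:**
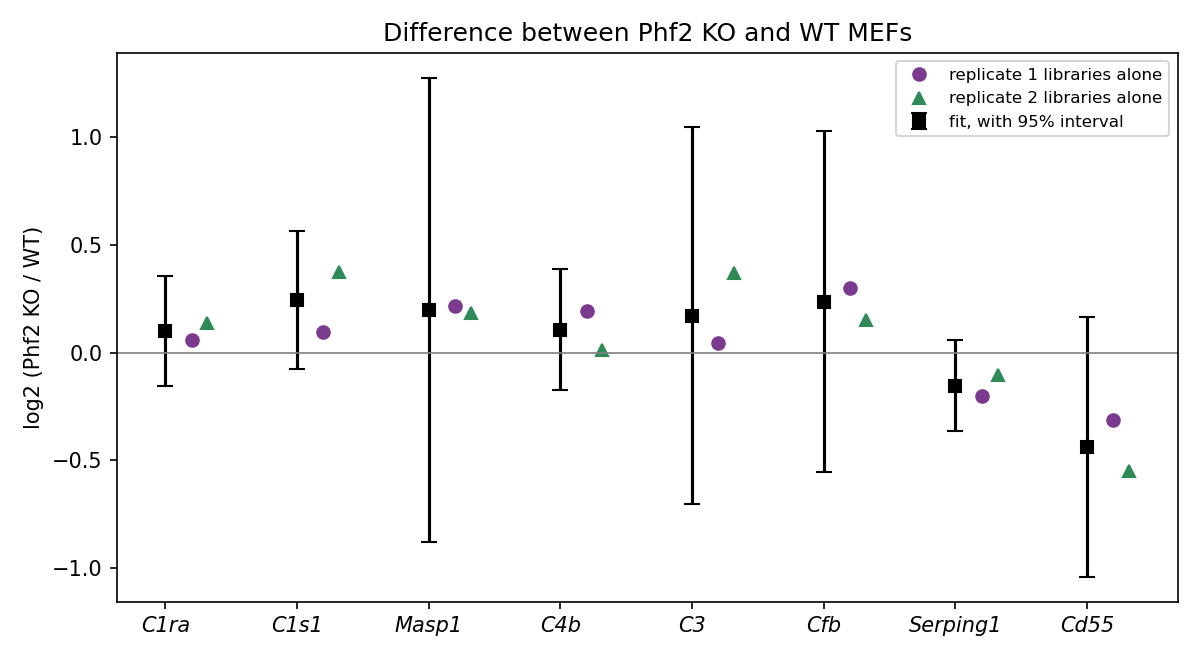
The y axis gives the log2 ratio of *Phf2* KO to WT for the 8 genes. Black squares are the fitted values with 95% intervals, purple circles the ratio within replicates 1 and green triangles that within replicates 2. Each of the 8 intervals includes 0, from the narrow one of *Serping1* (-0.37 to 0.06) to the wide one of *Masp1* (-0.88 to 1.27).

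With the replicate number as a further term, which leaves 1 residual degree of freedom and removes what the libraries of 1 number share, *C1s1* was the only one of the 8 that passed the threshold. It rose by 0.24 ± 0.08 on the log2 scale (SE, n = 2 per group, adjusted p = 0.054 in edgeR's quasi-likelihood test). The SE and p in that fit come almost wholly from a spread pooled over genes, not from each gene's own libraries. The SE was 0.085 for *C1ra*, 0.084 for *C1s1* and 0.083 for *Serping1*. In that fit 11.0% of all genes were called, and 1 of the 8 genes is close to that share. At a threshold of 0.05 *C1s1* did not pass. *Cd55* (adjusted p = 0.28) and *Serping1* (adjusted p = 0.30) followed, and *C3*, *C4b*, *C1ra*, *Cfb* and *Masp1* had adjusted p from 0.40 to 0.65 in the same fit.

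Between replicates 1 and 2, with genotype in the model, 3 of the 8 genes passed the threshold. This comparison was added after the libraries had been examined. Replicates 1 were higher for *C3*, by 0.64 ± 0.12 on the log2 scale (SE, n = 2 per number), and for *Cfb*, by 0.48 ± 0.21 (adjusted p = 0.092, edgeR), and replicates 2 were higher for *Masp1*, whose difference was -0.79 ± 0.20. Of all genes 26.2% were called in this comparison, and 3 of the 8 genes is near that share. As in the fit above, the SE and p come almost wholly from a spread pooled over genes. For *C3* the log2 ratio of replicate 1 to replicate 2 was 0.81 in WT and 0.48 in *Phf2* KO, for *Cfb* 0.41 and 0.56, and for *Masp1* -0.81 and -0.78, so each had 1 direction in both groups. The other 5 genes differed by between -0.15 and 0.13. The macrophage markers were higher in replicates 1, as *C3* and *Cfb* were and opposite to *Masp1*, with a median log2 difference of 2.03 over the 28 markers, and the sex of the libraries followed the number too. Their part in the differences of *C3*, *Cfb* and *Masp1* was not tested, and in bulk RNA fewer cells of a type and less RNA per cell cannot be told apart.

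**Figure D4:**
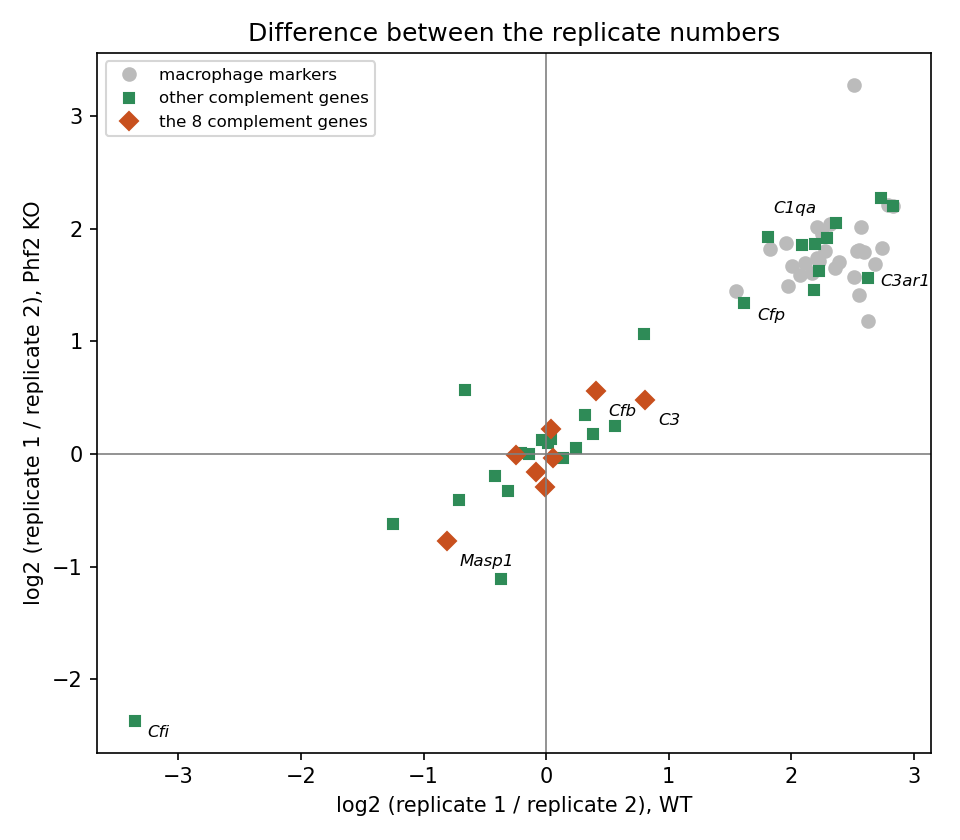
Each point is a gene, with the log2 ratio of replicate 1 to replicate 2 in WT on the x axis and in *Phf2* KO on the y axis. Grey circles are macrophage markers, green squares other complement genes and orange diamonds the 8 genes. *C3* (0.81 and 0.48) and *Cfb* lie to the upper right and *Masp1* to the lower left of the other 5 genes near 0, while *C1qa* lies among the macrophage markers and *Cfi*, at the far lower left, rests on 2 to 22 counts. *Itgam* belongs to both the grey and the green list.

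The rest of the complement system was read from 4 lists of 57 genes in the table, of which 29 passed the filter. None of the 29 was called by edgeR without the replicate number, where 2 had an unadjusted p under 0.05 (4.21% of all genes did) and the median log2 fold change was 0.03, and DESeq2 called 1, *Clu*, and limma-voom 0. With the replicate number as a term 7 were higher and 3 lower in *Phf2* KO, in a fit that called 11.0% of all genes, 789 higher and 711 lower. In the list of recognition and initiation genes 9 of 16 were tested and *C1qa*, *C1qb* and *C1qc*, the chains of C1q, rose in that fit. *C1qb* was counted at 385.1 and 84.2 normalized CPM in WT and at 466.7 and 127.7 in *Phf2* KO, a log2 fold change of 0.43 with the term and 0.34 without. *C1qa* was 0.51 higher with the term (0.39 within replicates 1 and 0.70 within replicates 2) and *C1qc* 0.33 (0.16 and 0.53). All 3 chains were higher in replicate 1 by 2.03 to 2.20 on the log2 scale, as the macrophage markers were, of which 10 of 28 were also higher in *Phf2* KO with the term and 0 lower, where 789 of all 13668 genes were higher. The macrophage marker *Lyz2* rose by 0.62 and *Laptm5* by 0.39 on the log2 scale in that fit, whereas *Cd68* had 0.12 and was not called. The part of these markers in the C1q difference was not tested. *Colec12*, a scavenger receptor with a collectin domain, was at 212.8 to 277.3 normalized CPM across the libraries and differed by 0.03 between the groups. *Mbl1*, *Mbl2* and *Fcnb*, recognition proteins of the lectin branch, had 0 counts in all 4 libraries. Others of that branch were measured, with *Fcna* at 62 and 19 counts in WT and 72 and 22 in *Phf2* KO. *Colec11* had 25 and 44 counts in WT against 24 and 37 in *Phf2* KO, and *Colec10*, which was not tested, 3 to 9 per library. *Fcna* and *Colec11* were called in neither edgeR fit.

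In the alternative and terminal list 2 of 9 genes were tested. *Cfp*, properdin, which stabilizes the alternative convertase, was at 93.2 and 30.4 normalized CPM in WT and at 120.0 and 47.5 in *Phf2* KO and rose by 0.49 on the log2 scale with the term, and it was also higher in replicates 1, by 1.47. *C8g* had 34 to 58 counts per library and a log2 fold change of 0.02. *C7*, a part of the lytic complex, was measured at 5 to 10 counts and was not tested.

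Among the regulators 11 of 22 were tested. *Clu*, clusterin, a secreted chaperone that also binds terminal complement complexes, was at 199.4 and 160.2 normalized CPM in WT and at 400.5 and 314.5 in *Phf2* KO, about double in both replicate numbers, with log2 ratios of 1.01 and 0.97. The fold change was 0.99 ± 0.18 on the log2 scale (SE, n = 2 per group). DESeq2 called it (adjusted p = 0.00038) and so did edgeR with the replicate number as a term (adjusted p = 1.2e-26), while edgeR without that term gave an adjusted p of 0.999. The p with the term rests on the spread pooled over genes, not on that of *Clu* alone. *Procr*, the protein C receptor, whose known role is in coagulation, fell by 0.78 on the log2 scale with the term, from 5.02 and 5.13 normalized CPM in WT to 3.09 and 2.83 in *Phf2* KO. *Csmd3* also fell in that fit, by 0.83, on 18 to 71 counts per library, and *Thbd*, thrombomodulin, a receptor of the same coagulation pathway, rose by 0.24. Without the term, the *Csmd3* value of -0.81 became -0.38 when *Phf2* KO replicate 1 was left out and -1.48 when its replicate 2 was. That of *Thbd*, 0.23, became 0.047 without WT replicate 1, 0.44 without WT replicate 2 and 0.13 without *Phf2* KO replicate 2. *C1qbp*, a mainly mitochondrial protein named for C1q binding, had a log2 fold change of -0.03. Among the receptors 7 of 10 were tested, and all 7 were higher in replicate 1 in both groups. With the term *Itgb2*, an integrin chain of leukocyte complement receptors, rose by 0.27 on the log2 scale and *C3ar1*, the receptor for the small C3 fragment, fell by 0.37. *C3ar1* was at 110.9 and 18.0 normalized CPM in WT and at 63.2 and 21.4 in *Phf2* KO, so that replicates 1 and replicates 2 moved in opposite directions. It was called with the term all the same, on that pooled spread. *Cd93* was at 67.5 and 14.9 in WT and at 63.5 and 23.2 in *Phf2* KO.

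Of 30 cytokine, receptor and transcription factor genes that act upstream of complement transcription, 27 were tested and none was called without the term, with 0 at an unadjusted p under 0.05 in edgeR, and neither DESeq2 nor limma-voom called any. With the replicate number 3 were higher in *Phf2* KO and 1 lower, and 4 of 27 is close to the 11.0% of all genes called in that fit. *Cebpd*, an acute-phase C/EBP factor, was at 53.1 and 62.2 normalized CPM in WT and at 78.3 and 65.5 in *Phf2* KO, and rose by 0.32 on the log2 scale (adjusted p = 0.0055, edgeR). Its log2 ratio was 0.56 within replicates 1 and 0.08 within replicates 2. *Relb*, an NF-kB subunit, rose by 0.29 and *Irf1*, an interferon-responsive factor, by 0.26, on the log2 scale. *Il1r1*, the receptor for interleukin 1, fell by 0.44 on the log2 scale, from 37.1 and 27.7 normalized CPM in WT to 25.5 and 22.1 in *Phf2* KO. Without the term its value of -0.45 became -0.21 without WT replicate 1, and that of *Cebpd*, 0.32, became 0.18 without *Phf2* KO replicate 1. That of *Irf1*, 0.26, became 0.16 without WT replicate 2. *Il6* was at 0 to 4 counts per library and *Ifng* at 0 in all 4. The median log2 fold change of the 27 genes was 0.10, against 0.01 over all genes tested.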

How the data were processed

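RNA-seq counts of 2 WT and 2 *Phf2* KO libraries of primary MEFs were analysed. The authors trimmed single 50-base reads with Trim Galore, removed ribosomal RNA with Bowtie2, mapped the rest with STAR to the mm9 genome (reverse-stranded setting) and deposited whole-number featureCounts counts per gene symbol, not normalized. Tool versions and the annotation release are not given in the sources used here. The authors' DESeq2 table of fold changes and p-values was not used.

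Counts were filtered (filterByExpr), scaled by TMM (factors 0.983 to 1.01) and tested by glmQLFit and glmQLFTest of edgeR 4.0.16 in R 4.3.3, over 13668 genes with Benjamini-Hochberg adjustment and a threshold of 0.1. Normalized CPM are counts divided by the scaled library size. DESeq2 1.42.0 and limma 3.58.1 (voom), other scalings and filters, a replicate block and leaving out each library were alternatives. Windows were matched with BLAST 2.17.0, and other steps used Python 3.11.15, pandas 2.3.3 and Matplotlib 3.10.9. The fits were tested on simulated data.

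The 8 genes and the lists were chosen with earlier results of these data known. Other genes were named where called in either edgeR fit, or as the 3 most abundant of each complement list, and *Phf2*, *Xist* and the 3 highest macrophage markers as checks. *C1rb*, *C1s2*, *C4a*, *Cd55b*, *Cfi*, *Fcna*, *Colec10*, *Colec11*, *Kdr*, *Pecam1*, *Cdh5*, *Il6* and genes at 0 were named after their values were seen. A rule naming the genes nearest in pattern to a member with a log2 range above 1 across libraries found no such member. The study calls the replicates biological, and the sex markers differ between the numbers within each group, so the libraries of a group held cells of different embryos.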

Additional observations from a re-analysis of the deposited data

Results flagged for a closer look

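For 5 complement genes outside the 8, the *Phf2* KO to WT ratio had opposite signs in the 2 replicate numbers, and the difference between the numbers was not tested. The log2 ratio was -0.81 in replicates 1 and 0.25 in replicates 2 for *C3ar1*, and 0.65 and -0.58 for *C8g*, which rests on 34 to 58 counts per library. For *Cd93* it was -0.090 and 0.64, for *Colec12* -0.058 and 0.15, and for *C1qbp* 0.018 and -0.077.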

How the results depend on the processing

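Under the 6 other tools, scalings and filters, the 48 fold changes of the 8 genes kept their direction. None of them was called, with each adjusted p above the threshold of 0.1. The median of all genes tested stayed between -0.01 and 0.01 on the log2 scale. *Clu* was the 1 other complement gene that DESeq2 called, at 1.00 on the log2 scale.

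The replicate block called 1 of the 8 genes (*C1s1*, 0.24), 10 other complement genes and 4 upstream genes. Whether the numbers pair the libraries is not stated by the sources. The replicate 1 to replicate 2 log2 ratio of WT followed that of *Phf2* KO over 13656 genes (r = 0.746, across genes, which are not independent replicates), and the chi-square per degree of freedom was 51.0 and 35.1 between replicates of a group and 18.8 and 14.6 between same-numbered libraries. All genes called rose from 1 to 1500 (64 in DESeq2).

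With 1 library left out, where the lone library of a group is assumed to vary like the other group, 0 of the 8 genes, of the other complement genes and of the upstream genes were called. The log2 fold changes ranged from 0.02 to 0.18 for *C1ra*, 0.09 to 0.38 for *C1s1*, -0.20 to 0.64 for *C3*, -0.012 to 0.21 for *C4b*, -0.067 to 0.49 for *Cfb*, -0.20 to -0.11 for *Serping1*, -0.54 to -0.32 for *Cd55* and -0.24 to 0.64 for *Masp1*. The sign turned without *Phf2* KO replicate 1 for *C3* (-0.092), *C4b* and *Cfb*, without WT replicate 2 for *C3*, and without WT replicate 1 (-0.14) or *Phf2* KO replicate 2 for *Masp1*. Of the other genes, ranges that kept their sign but moved by over 1.5 times were -1.48 to -0.38 for *Csmd3*, 0.047 to 0.44 for *Thbd*, -0.66 to -0.21 for *Il1r1*, 0.18 to 0.44 for *Cebpd* and 0.16 to 0.37 for *Irf1*, and those that crossed 0 were -0.92 to 2.08 for *C1qa*, -0.88 to 1.83 for *C1qb*, -1.03 to 1.80 for *C1qc*, -0.38 to 1.47 for *Cfp*, -1.59 to 1.25 for *C3ar1*, -0.99 to 1.62 for *Itgb2*, -0.83 to 1.55 for *Cd93*, -0.16 to 0.25 for *Colec12*, -0.29 to 0.38 for *C8g* and -0.098 to 0.036 for *C1qbp*. Each such fit sets 1 replicate number of a group against both numbers of the other, which mixes genotype with replicate number. The cause of each move was not tested.

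With the longest transcript as the length, the level was 91.4 normalized CPM per kb for *Serping1*, 25.96 for *C1s1*, 24.1 for *C1ra* and 0.856 for *Cd55*, because those lengths are shorter than the joined exons. *Cd55*, at 47 to 87 counts, and *Cfb*, at 69 to 90, are also limited by counting error.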
